A study of Homo sapiens with 4 samples.

Results

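The genes described here are the heat shock proteins, the J-domain proteins of the DNAJA, DNAJB and DNAJC families, the heat shock transcription factors HSF1 and HSF2, and the co-chaperone BAG3. They were chosen by symbol: the HSPA, HSPB, HSPD, HSPE and HSPH genes, HSP90AA1, HSP90AB1 and all numbered DNAJA, DNAJB and DNAJC genes, without the endoplasmic reticulum (ER) genes HSPA5, DNAJB9, DNAJB11 and DNAJC3. The rule found 70 of 60766 annotated features. HSPA14 and DNAJC7 were listed more than once, and the row with the highest mean was kept.

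Chaperones of the HSP70 class bind unfolded stretches of protein and release them as they turn over ATP. J-domain proteins deliver clients to HSP70 and start that turnover, while HSP110 proteins and BAG proteins exchange the nucleotide and close the cycle. HSP90 receives clients from HSP70 later in folding, small heat shock proteins hold unfolded clients without ATP, and chaperonins fold proteins inside a closed cavity. Proteotoxic stress frees HSF1, which binds heat shock elements in the promoters of many of these genes. Colon carcinoma cells, like other cultured tumour cells, are known for high chaperone levels without heat shock.

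Expression was measured by RNA sequencing in HCT116, an established epithelial line from a human colon carcinoma, with 2 libraries labelled control and 2 from cells with an ARID1A knockdown by short hairpin RNA. ARID1A is a subunit of the BAF form of the SWI/SNF chromatin remodeller. The series was set up to examine links between ARID1A and immune functions. All cells grew in the same medium and no heat shock or drug is given for any group, and neither the hairpin's sequence, the vector used for the controls nor the number of clones is given in the sources used here. The labels number the replicates but do not call them separate cultures, so p-values measure the spread between these libraries, which may be technical.

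Values were FPKM, fragment numbers scaled by transcript length and by library total. At an estimated 69000000 to 75750000 fragments per library, 1 FPKM over a 2 kb transcript rests on 138 to 152 fragments. ARID1A (chr1:26693236-26782104, GRCh38) stood at 11.1 and 11.4 FPKM in control libraries against 7.05 and 6.13 after knockdown, 41.3% lower on average, with a log2 change of -0.69 (SE 0.0774, limma adjusted p = 0.00438). The epithelial markers EPCAM, KRT8, KRT18 and CDH1 were at 24.0 FPKM or more in every library, the leukocyte markers PTPRC and CD3E at 0.006 or less, and the endothelial markers PECAM1, VWF and CDH5 at 0.163 or less. EPCAM was at 312 and 312 FPKM in controls against 147 and 141 after knockdown, and KRT8 at 894 and 872 against 1413 and 1453. Of the other non-epithelial markers read, the fibroblast genes COL1A2 and PDGFRB were at 0.103 or less, but COL1A1 was at 3.58 to 6.15. CD68, read as a leukocyte marker, was at 6.58 and 5.25 in controls against 2.55 and 3.39 after knockdown. Transcripts of the mitochondrial genome made up 4.35% and 4.29% of all FPKM in control libraries against 6.04% and 5.65% after knockdown. EPCAM, KRT8, CD68 and the mitochondrial share moved with the groups, and their part in the results was not tested.

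The symbol rule gathers more than the cytosol. HSPA9, HSPD1, HSPE1, DNAJA3, DNAJC11, DNAJC15, DNAJC19, DNAJC28 and DNAJC30 act in mitochondria. HSPA13, DNAJB12, DNAJB14, DNAJC1, DNAJC10, DNAJC16, DNAJC18 and DNAJC25 are ER proteins. HSPB11 carries a heat shock name but is a subunit of the intraflagellar transport machinery, also called IFT25. Together the members made up 0.79% of all FPKM in each control library and 0.85% and 0.81% after knockdown.

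Heat shock elements are the sequence feature that ties these genes to HSF1. RefSeq promoter windows on GRCh38.p14, from 250 bases before to 50 bases after an annotated start, were found for 60 of the 70 members. An element of 3 alternating units was searched as GAANNTTCNNGAA or its reverse complement TTCNNGAANNTTC, so that both strands were covered. It lay in the windows of 7 members, 11.7% of the 60, against 166 of 27305 genes with a window (0.6%). These 7 genes are DNAJA1, DNAJB6, HSP90AA1, HSP90AB1, HSPA6, HSPA8 and HSPD1. Their matches follow, each read 5′ to 3′ on the strand of the gene with the element in capitals. They show which members carry an exact match to this pattern in a searched window.
DNAJA1 (chr9:33025268-33025296, plus strand): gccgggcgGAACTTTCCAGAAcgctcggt
DNAJB6 (chr7:157336865-157336893, plus strand): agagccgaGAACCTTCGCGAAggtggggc
HSP90AA1 (chr14:102087112-102087140, minus strand): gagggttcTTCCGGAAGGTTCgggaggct
HSP90AB1 (chr6:44247770-44247798, plus strand): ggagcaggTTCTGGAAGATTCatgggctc
HSP90AB1 (chr6:44247823-44247851, plus strand): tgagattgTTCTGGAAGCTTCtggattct
HSPA6 (chr1:161524458-161524486, plus strand): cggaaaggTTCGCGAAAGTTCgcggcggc
HSPA8 (chr11:123062346-123062374, minus strand): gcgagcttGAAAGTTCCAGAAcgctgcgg
HSPA8 (chr11:123062171-123062199, minus strand): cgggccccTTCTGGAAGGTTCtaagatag
HSPD1 (chr2:197500062-197500090, minus strand): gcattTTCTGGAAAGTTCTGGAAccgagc
The elements begin 4 bases into the transcript of DNAJA1, 131 bases before the start of DNAJB6 and 74 before that of HSPA6. HSP90AA1, HSP90AB1 and HSPD1 have more than 1 annotated start, and their elements belong to the most downstream one, inside the listed locus. They begin 88 bases before that start in HSP90AA1, and 165 and 112 before it in HSP90AB1. In HSPA8 they begin 230 and 55 bases before the start. The HSPD1 match is an unbroken run of 18 bases that begins 245 bases before the more downstream of its starts. It also lies just before the listed locus of HSPE1 (chr2:197500140-197503449), but outside the searched window of that gene. A shorter pattern of 2 units, GAANNTTC or TTCNNGAA on either strand, is contained in the 3-unit pattern and was in a window of 36.7% of the members against 16.2% of all genes. No mismatch was allowed in either pattern. HSPA1A, HSPA1B, HSPB1 and DNAJB1, which hold 2-unit matches, therefore count as having no 3-unit element. A gene without a match is not shown to lack an imperfect element. A match describes the letters only and is not evidence of binding.

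The chaperone genes moved little and in both directions. Among the 56 members with a mean of at least 1 FPKM, the level required for testing, 16 rose in the knockdown (28.6%), 6 fell (10.7%) and 34 did not pass the test. Over all 13605 genes tested the shares were 18.2% higher and 18.9% lower, or 37.1% in either direction, against 39.3% of the members. So the total share called among the members lay near the background, while the calls were split 16 to 6 toward higher values, and 13 to 8 under quantile normalization. No set test was run. The test was limma on log2(FPKM + 1) with Benjamini-Hochberg adjustment over all tested genes at 0.05, and log2 changes are on that scale, which understates changes of low genes. An exact permutation test of 2 against 2 libraries cannot go below p = 0.33.

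The changes were small. The median log2 change was 0.06 over the tested members and -0.003 over all tested genes, and called members had a median absolute log2 change of 0.33 against 0.36 for all called genes. The largest absolute change of a called member was 0.73, and 4 reached 0.5. The knockdown libraries did not overlap the controls for 29 members that were higher and 10 that were lower, while 17 overlapped. Over all tested genes 72.3% did not overlap, 35.8% higher and 36.5% lower. Many of the 22 called members lost their call when 1 library was left out. Such a fit leaves 1 group with 1 library and has less power. A lost call therefore need not mean that it depended on that library. The sign of a called member could not change in these fits, because the groups did not overlap in any called member. Under the other filters, pseudocounts, scalings and fits with all libraries kept, HSPB8 lost its call only without a filter on low values (limma adjusted p = 0.0538). Without that filter HSPA4, HSPA8, HSP90AB1, DNAJB4, DNAJC1, DNAJC2, DNAJC8, DNAJC10 and DNAJC11 lost theirs too, and a filter at a mean of 0.1 FPKM or a fit without a trend ended those of HSPA8, HSP90AB1, DNAJC8 and DNAJC10. Without control 1 or control 2 the number that rose was 6, and the number that fell was 3. In bulk RNA, a lower value in all cells cannot be told apart from fewer cells that express the gene.

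**Figure D1:**
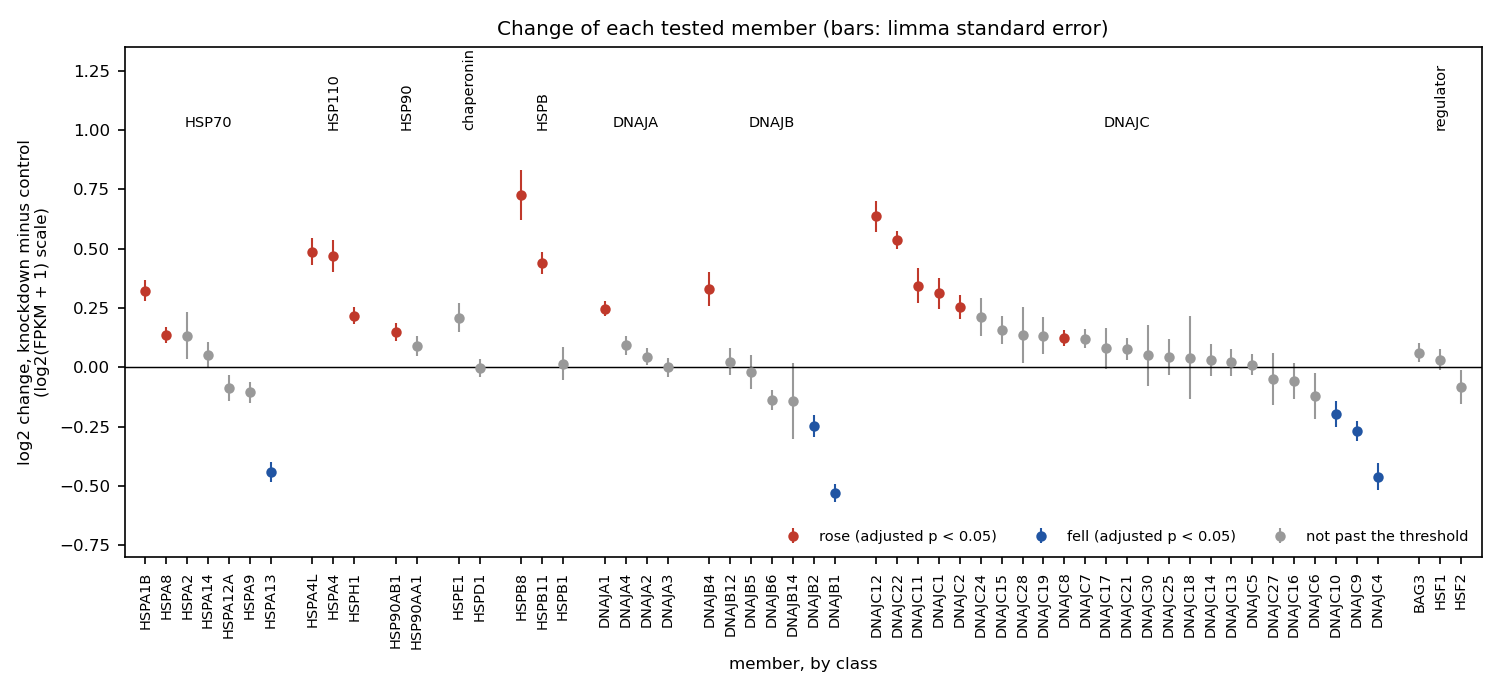
Log2 change (knockdown minus control, on log2(FPKM + 1)) of each of the 56 tested members, grouped by class; points are limma estimates, vertical bars are ± 1 SE, and colour gives the call at an adjusted p of 0.05. All 3 HSP110 genes lie above 0, and the called falls are HSPA13, DNAJB1, DNAJB2, DNAJC4, DNAJC9 and DNAJC10.

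The 14 untested members were near silent with few exceptions. HSPA7 and HSPB3 were listed at 0 in all 4 libraries. HSPA6, a strictly stress-induced HSP70, was at 0.042, 0.00673, 0.0128 and 0.0258 FPKM (control 1, control 2, knockdown 1 and knockdown 2, the order used throughout). HSPA1L, the small heat shock proteins HSPB2, HSPB6, HSPB7 and HSPB9, and DNAJB3, DNAJB7, DNAJB8 and DNAJB13, several of them known from muscle or testis, stayed under 0.3 FPKM in every library. Only HSPA12B and HSPA1A came near the filter. HSPA12B, a distant HSP70 relative known from endothelium, was at 0.585, 0.660, 1.08 and 0.933 FPKM, with no overlap between the groups.

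HSPA1A and HSPA1B, the stress-inducible HSP70 genes, encode nearly the same protein and cannot be separated with confidence. HSPA1A (chr6:31815543-31817946) was at 0.699, 0.351, 0.535 and 0.819 FPKM, with overlapping groups. HSPA1B (chr6:31827738-31830254) was at 34.5, 36.0, 45.1 and 43.6 FPKM, both knockdown libraries above both controls. Their longest transcripts in GENCODE release 29 were 96.7% identical over 2380 aligned bases, so how the authors' counting assigned shared reads sets the split. The sum of both genes averaged 35.8 ± 0.815 FPKM in controls and 45.0 ± 0.848 after knockdown (SD, n = 2 each), a log2 change of 0.32 with a limma adjusted p of 0.00579. HSPA1B alone gave 0.32 (limma adjusted p = 0.00692), and 0.0522 without control 1. Their promoters are also alike. The stretches before the start that lie outside annotated UTRs follow, with 2-unit elements in capitals, because they show how little sequence separates the copies.
HSPA1A (GRCh38.p14, chr6:31815293-31815463, plus strand): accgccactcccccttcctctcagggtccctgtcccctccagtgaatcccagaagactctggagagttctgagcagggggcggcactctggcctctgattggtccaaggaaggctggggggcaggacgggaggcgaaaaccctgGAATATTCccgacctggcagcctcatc
HSPA1B (GRCh38.p14, chr6:31827488-31827734, plus strand): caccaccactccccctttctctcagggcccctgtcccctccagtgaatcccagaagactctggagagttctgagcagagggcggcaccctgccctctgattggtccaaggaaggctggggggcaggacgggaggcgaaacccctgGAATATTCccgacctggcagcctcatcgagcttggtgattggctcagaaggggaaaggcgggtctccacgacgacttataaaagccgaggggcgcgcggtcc
The windows before the start were 94.4% identical over 249 aligned bases, and both hold GAATATTC.

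Of the other HSP70 genes 1 rose and 1 fell, and HSPA8 was the most abundant. In the whole class 2 of 7 tested genes rose (28.6%) and 1 fell (14.3%), against 18.2% and 18.9% of all tested genes. HSPA8, the constitutive HSC70 that also strips clathrin from vesicles, was at 841, 837, 933 and 909 FPKM. Both knockdown libraries were above both controls, 1.1-fold on average, with a log2 change of 0.13 (limma adjusted p = 0.0366). This call was lost without control 1 (0.183), control 2 (0.196) or knockdown 1 (0.0837), and with upper-quartile scaling (0.0593) and under quantile normalization, where the change was 0.01 (0.910). HSPA9, the mitochondrial HSP70 mortalin, was at 238, 222, 214 and 213 FPKM, a log2 change of -0.10 (limma adjusted p = 0.127), and passed at 0.0399 under quantile normalization. HSPA2, known from testis, HSPA14, a partner of ribosomes, and HSPA12A did not pass either, with log2 changes of 0.13, 0.05 and -0.09.

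HSPA13 (chr21:14371115-14383484) was the HSP70 gene that fell. It encodes STCH, a microsomal protein with the ATPase domain of HSP70 but no substrate-binding domain. Values were 21.3, 21.2, 15.4 and 15.4 FPKM, 21.3 ± 0.0190 against 15.4 ± 0.0123 (SD, n = 2 each). The control libraries were 1.38-fold above the knockdown libraries, with a log2 change of -0.44 (SE 0.0419, limma adjusted p = 0.00291).

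All 3 HSP110 genes rose. These relatives of HSP70 act as its nucleotide exchange factors and help it to pull apart aggregates. HSPH1 (chr13:31134973-31162388), encoding HSP105, was at 69.2, 67.5, 80.1 and 79.2 FPKM, a log2 change of 0.22 (SE 0.0354, limma adjusted p = 0.0114). HSPA4 (chr5:133052013-133106449), encoding APG-2, was at 98.0, 97.8, 145 and 128 FPKM, a change of 0.47 (SE 0.0663, limma adjusted p = 0.00792), with the knockdown pair apart by more than the control pair. HSPA4L (chr4:127781821-127840733), encoding APG-1, was lower in level, at 6.99, 6.84, 9.81 and 10.4 FPKM, with a change of 0.49 (SE 0.0576, limma adjusted p = 0.00504). In each gene the groups did not overlap. Among all tested genes 72.3% did not overlap, 35.8% higher in the knockdown, and 18.2% were called higher. Without control 1 and without control 2 the adjusted p was 0.0611 and 0.0797 for HSPH1 and 0.0550 and 0.0548 for HSPA4.

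The cytosolic HSP90 genes are among the most abundant members. HSP90AB1, the constitutive form, was at 849, 818, 929.8 and 918 FPKM, 1.11-fold higher in the knockdown, with a log2 change of 0.15 (limma adjusted p = 0.0342). It lost the call when control 1 (0.116), control 2 (0.211), knockdown 1 (0.0860) or knockdown 2 (0.0647) was left out, and quantile normalization gave a change of 0.02. HSP90AA1, the inducible form, was at 796, 787, 867 and 817 FPKM, also without overlap, but its change of 0.09 did not pass (limma adjusted p = 0.166) and was -0.05 under quantile normalization. Processed pseudogenes of HSPA8, HSPD1, HSPE1 and both HSP90 genes exist, so some reads may have been assigned elsewhere.

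The mitochondrial chaperonin pair did not pass. HSPD1, which encodes HSP60, was at 589.8, 577, 596 and 569.8 FPKM, with overlapping groups and a log2 change of -0.00 (limma adjusted p = 0.972). Its lid HSPE1, encoding HSP10, was at 712, 756, 889 and 809 FPKM, both knockdown libraries above both controls, a change of 0.21 (limma adjusted p = 0.0519). HSPE1 passed with a pseudocount of 0.1 FPKM (0.0497), with a filter at a mean of 5 FPKM (0.0410) and without knockdown 2 (0.0311), while quantile normalization cut its change to 0.06 (0.421). The genes lie head to head and their listed loci overlap.

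Small heat shock proteins gave the largest single change. HSPB8 (chr12:119178642-119221131), which works with BAG3 in the autophagic removal of damaged proteins, was at 3.34, 2.65, 5.49 and 5.70 FPKM. That is 3.0 ± 0.49 against 5.6 ± 0.15 (SD, n = 2 each), 1.87-fold higher in the knockdown, with a log2 change of 0.73 (SE 0.106, limma adjusted p = 0.00849). HSPB8 is a low-abundance transcript, its limma adjusted p was 0.0538 without a filter on low values, and its locus overlaps AC084880.1. HSPB11 (chr1:53916574-53945929), the intraflagellar transport subunit, was at 39.6, 37.2, 53.2 and 51.7 FPKM, a change of 0.44 (limma adjusted p = 0.00399). HSPB1, encoding HSP27, the abundant member of the class, was at 700, 664, 647 and 735 FPKM, with the control values inside the knockdown range, a log2 change of 0.02 and a limma adjusted p of 0.882. Its sign turned under both other scalings, to -0.10 with quantile normalization.

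DNAJA1 and DNAJB1, the main cytosolic J-domain partners of HSP70, moved in opposite directions. DNAJB1 (chr19:14514769-14529770), the classical HSP40 and a partner of HSP110 in disaggregation, was at 94.8, 93.1, 63.7 and 66.0 FPKM. Controls averaged 94.0 ± 1.24 and knockdown libraries 64.8 ± 1.66 (SD, n = 2 each), 1.45-fold higher in the controls, with a log2 change of -0.53 (SE 0.0379, limma adjusted p = 0.00148). This was the member with the lowest adjusted p, and its locus overlaps TECR. DNAJA1 (chr9:33025273-33039907), a farnesylated partner of HSC70, was at 162, 161, 193 and 190.4 FPKM, a log2 change of 0.25 (SE 0.0318, limma adjusted p = 0.00626), or 0.0567 without control 1 and 0.0582 without control 2. The promoter stretch of DNAJB1 outside annotated UTRs is shown because it is the member that fell with the lowest p and also carries 2-unit elements, in capitals.
DNAJB1 (GRCh38.p14, chr19:14518421-14518647, minus strand): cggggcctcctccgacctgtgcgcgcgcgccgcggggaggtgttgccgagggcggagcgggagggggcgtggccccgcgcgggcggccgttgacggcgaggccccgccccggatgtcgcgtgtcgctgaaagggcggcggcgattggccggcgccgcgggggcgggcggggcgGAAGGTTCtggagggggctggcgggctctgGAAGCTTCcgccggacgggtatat
It holds GAAGGTTC and GAAGCTTC, and no exact 3-unit match in the searched windows, against 1 in DNAJA1.

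The other DNAJA genes were near the controls. DNAJA2, cytosolic, DNAJA3, the mitochondrial TID1, and DNAJA4 had log2 changes of 0.04, -0.00 and 0.09, none past the threshold. In DNAJA3 the groups overlapped.

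In the DNAJB class 1 of 7 tested genes rose (14.3%) and 2 fell (28.6%), against 18.2% and 18.9% of all tested genes. DNAJB4 rose from 15.0 and 13.4 to 17.4 and 18.7 FPKM, a log2 change of 0.33 (limma adjusted p = 0.0256). DNAJB2, which carries ubiquitin-interacting motifs and is known from neurons, fell from 22.5 and 23.1 to 18.7 and 19.4 FPKM, a change of -0.25 (limma adjusted p = 0.0160). Both calls were lost in fits that left out 1 library, which have less power. DNAJB4 was at an adjusted p of 0.101 without control 2, 0.0564 without knockdown 1 and 0.0931 without knockdown 2, and DNAJB2 at 0.0690 without control 1, 0.0874 without control 2 and 0.0637 without knockdown 1. DNAJB6, a suppressor of polyglutamine aggregation, was at 105, 108, 94.3 and 98.9 FPKM, a change of -0.14 (limma adjusted p = 0.0581). It passed with a filter at a mean of 5 FPKM (0.0491), with upper-quartile scaling (0.0402) and with quantile normalization (0.0202). DNAJB5 and the ER membrane proteins DNAJB12 and DNAJB14 did not pass, with overlapping groups in each. DNAJB14 varied most within the knockdown pair, at 29.6 and 41.0 FPKM.

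**Figure D2:**
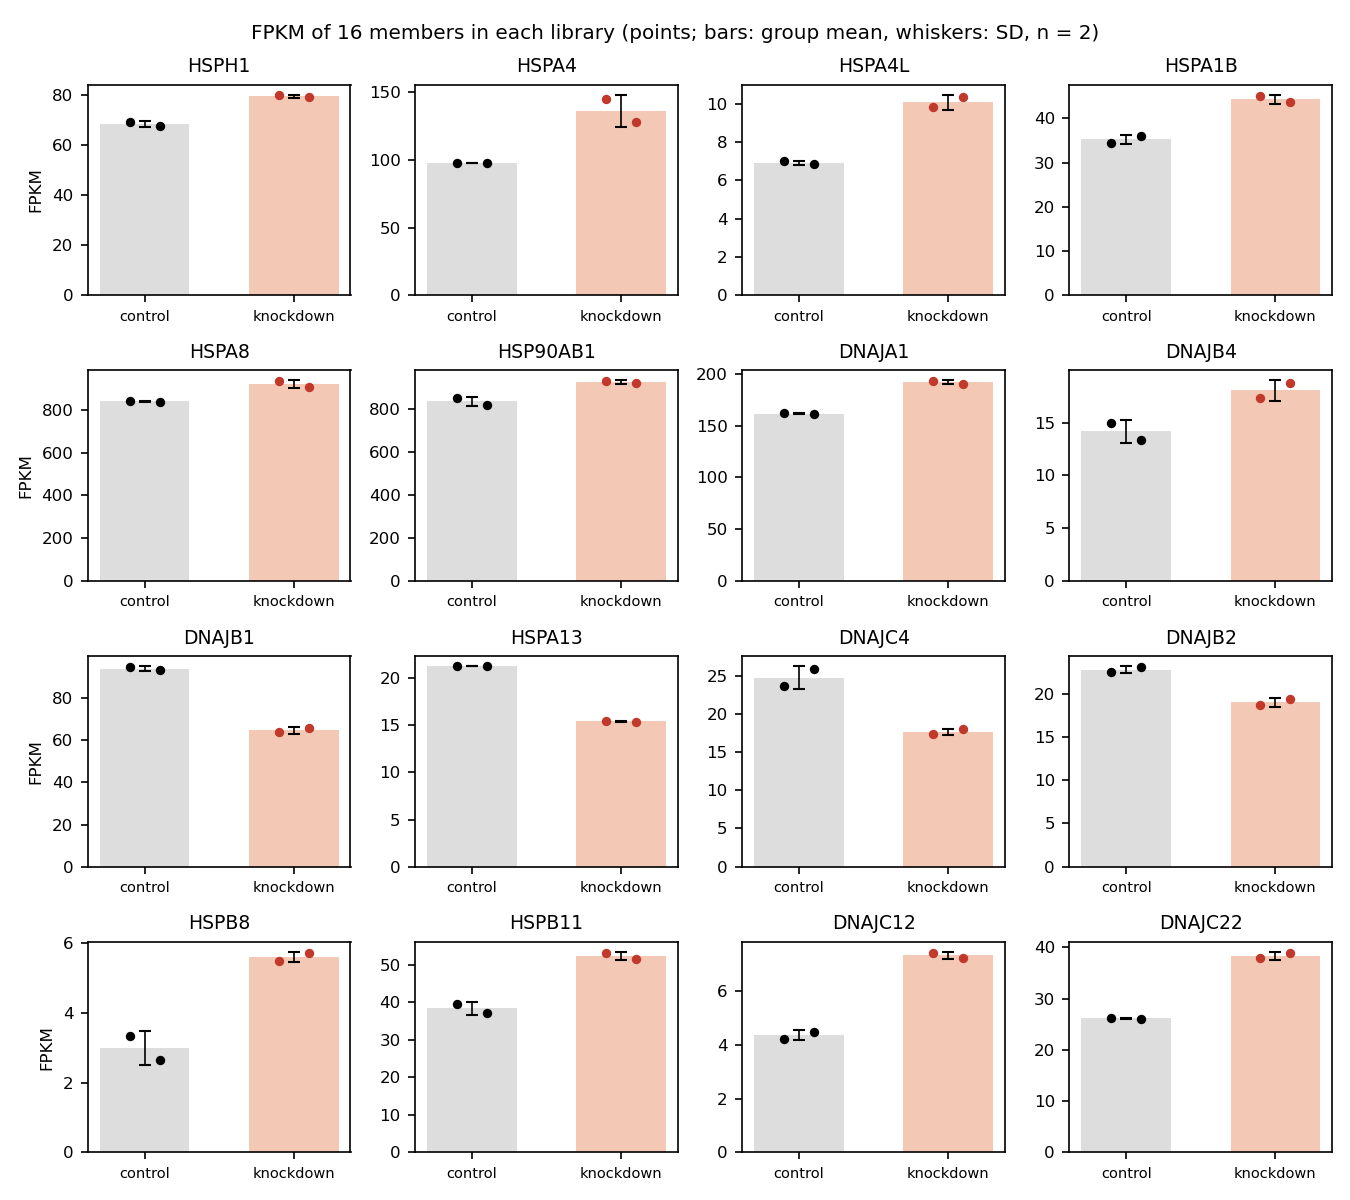
FPKM in each library of 16 members, with 1 panel per gene and its own axis from 0; points are libraries, bars are group means and whiskers are SD (n = 2). All panels show called members, in none of which the groups overlap; over all tested genes 72.3% did not overlap. In HSPA4 the knockdown points lie apart, at 145 and 128 FPKM.

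DNAJC proteins share only the J domain, and each serves its own client or organelle. All 25 passed the filter. Of these, 6 rose (24.0%), 3 fell (12.0%) and 16 did not pass the test. The share called was 36.0%, near the 37.1% of all tested genes, of which 18.2% rose and 18.9% fell. DNAJC12 (chr10:67796669-67838188), a co-chaperone of the aromatic amino acid hydroxylases, was at 4.22, 4.49, 7.42 and 7.22 FPKM, 1.68-fold higher in the knockdown, with a log2 change of 0.64 (SE 0.0644, limma adjusted p = 0.00342). DNAJC22 (chr12:49346888-49357546), the homologue of the fly membrane protein wurst, was at 26.2, 26.1, 37.8 and 38.9 FPKM, 1.47-fold higher, with a change of 0.54 (SE 0.0396, limma adjusted p = 0.00161). Pairs of libraries lay close together in both genes. DNAJC4 (chr11:64230278-64234286) was the largest fall of the class, at 23.7, 25.8, 17.4 and 18.0 FPKM, a change of -0.46 (SE 0.0580, limma adjusted p = 0.00582). Its locus overlaps NUDT22, and without strand information reads of overlapping genes cannot be told apart. This overlap with another expressed feature touches 8 of the 22 called members: DNAJB1, DNAJB4, DNAJC2, DNAJC4, DNAJC9, DNAJC11, HSPA4L and HSPB8.

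The other DNAJC calls were smaller and each was lost without some library. DNAJC11, a mitochondrial protein linked to cristae, rose from 28.2 and 26.6 to 33.0 and 37.3 FPKM (log2 change 0.34, limma adjusted p = 0.0224; 0.0733 without control 1, 0.109 without control 2 and 0.0524 without knockdown 2). DNAJC1, an ER membrane protein that binds ribosomes, rose from 17.6 and 16.7 to 20.5 and 22.6 FPKM (0.31, limma adjusted p = 0.0216; 0.0715 without control 1, 0.104 without control 2 and 0.0665 without knockdown 2). DNAJC2, a ribosome-associated partner of HSPA14, rose by 0.25 (limma adjusted p = 0.0201; 0.0729 without control 1, 0.101 without control 2 and 0.0752 without knockdown 2). DNAJC8, a spliceosome protein, rose by 0.12 from a mean of 75.1 to 82.0 FPKM (limma adjusted p = 0.0441; 0.142 and 0.203 without control 1 and control 2, 0.104 and 0.106 without knockdown 1 and knockdown 2). DNAJC8 also missed the threshold with upper-quartile scaling (0.0599) and quantile normalization (0.107).

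Falls were seen for a nuclear and an ER protein. DNAJC9, a chaperone of histones H3 and H4, fell from 24.1 and 25.1 to 20.1 and 20.4 FPKM (log2 change -0.27, limma adjusted p = 0.0118; 0.0524 without control 1, 0.0722 without control 2 and 0.0513 without knockdown 1). DNAJC10, the ER disulphide reductase ERdj5, fell from 30.9 and 30.0 to 27.6 and 25.3 FPKM (-0.20, limma adjusted p = 0.0492; 0.189 without control 1, 0.137 without control 2 and 0.137 without knockdown 2). The remaining members cover many compartments, and none passed. They include DNAJC5, the synaptic vesicle protein CSP, the clathrin uncoating factor DNAJC6, DNAJC13 of endosomes, DNAJC7, which bridges HSP70 and HSP90, DNAJC15 and DNAJC19 of the mitochondrial import motor, DNAJC21 of ribosome assembly and DNAJC24 of diphthamide synthesis. Their log2 changes ran from -0.12 in DNAJC6 to 0.21 in DNAJC24. DNAJC14, DNAJC16, DNAJC17, DNAJC18, DNAJC25, DNAJC27, DNAJC28 and DNAJC30 also did not pass, with changes between -0.06 and 0.14. Of the 9 mitochondrial members 1 rose and 0 fell, and of the 8 ER members 1 rose and 2 fell.

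The regulators did not pass the test. HSF1, the main heat shock factor, was at 80.7, 79.3, 79.2 and 84.5 FPKM, with a log2 change of 0.03 (limma adjusted p = 0.609), or -0.01 under quantile normalization and without knockdown 2. HSF2 was at 16.2, 14.4, 14.7 and 13.9 FPKM, a change of -0.08 (limma adjusted p = 0.398). Both had overlapping groups. BAG3, which links HSP70 to autophagy and is itself an HSF1 target, was at 33.7, 33.2, 34.5 and 35.4 FPKM, a change of 0.06 (limma adjusted p = 0.273) without overlap. The activity of HSF1 is set mostly by its protein state, which these data do not measure.

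**Figure D3:**
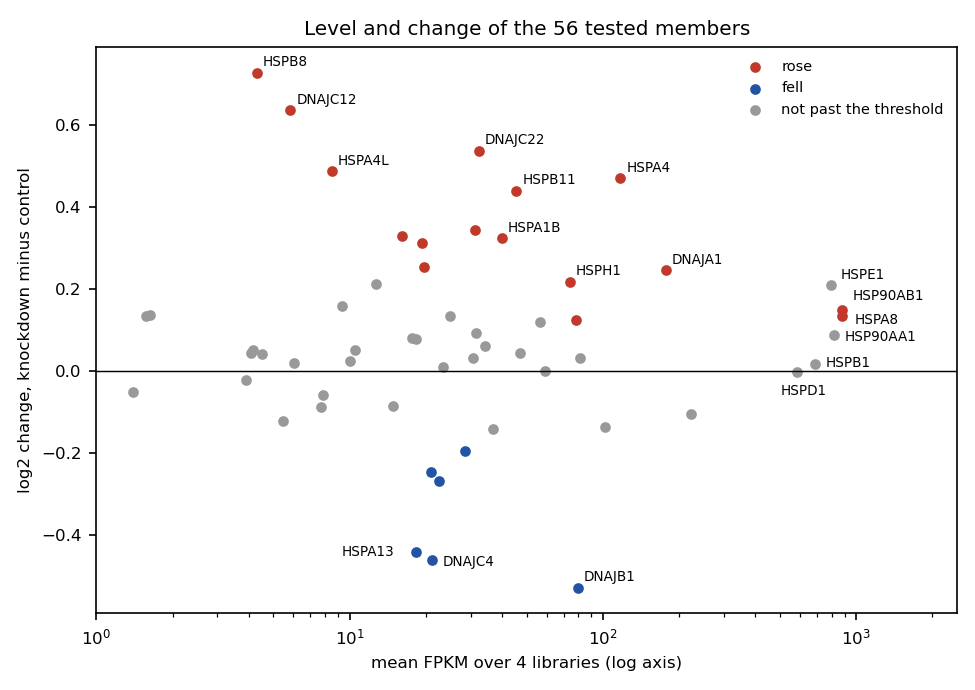
Mean FPKM over the 4 libraries (log axis) against log2 change (knockdown minus control) of the 56 tested members, coloured by call. Of the 10 members with a mean of at least 100 FPKM, 4 are called higher and 0 lower, with HSPA4 highest at 0.47. Under quantile normalization 2 are higher and 2 lower, and without a filter on low values 1 is higher and 0 lower. The shares over all tested genes were 18.2% higher and 18.9% lower. The 4 called changes of at least 0.5 in size belong to members with a mean below 100 FPKM.

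Levels ranged widely among the members. Of the 10 members with a mean of at least 100 FPKM, 4 rose and 0 fell. That split depended on the scaling: it was 3 to 1 with upper-quartile scaling and 2 to 2 with quantile normalization, where HSPA8 and HSP90AB1 lost their calls and HSPA9 and DNAJB6 passed as falls. The other 46 tested members held 12 rises and 6 falls. HSPA8, HSP90AA1, HSP90AB1, HSPB1, HSPD1 and HSPE1 stood above the rest, with group means of 583 FPKM or more. Presence of a heat shock element was set beside the changes as a description. Of the 6 tested members with an exact 3-unit match, 3 rose (DNAJA1, HSP90AB1 and HSPA8) and 0 fell, with a median log2 change of 0.11. Among all tested genes 18.2% rose and 18.9% fell, and 6 members are too few for a comparison of shares. Without a filter on low values, with a filter at a mean of 0.1 FPKM or in a fit without a trend, 1 of the 6 rose and 0 fell. With upper-quartile scaling 2 rose and 1 fell, and with quantile normalization 1 rose and 1 fell (DNAJB6), with a median of -0.02. Of the 44 tested members with a window and no exact match, 10 rose and 6 fell, with a median of 0.04. Under quantile normalization 9 of these rose and 7 fell, with a median of 0.07, and without a filter on low values 4 rose and 5 fell. The 44 include members with 2-unit matches, such as HSPA1B, HSPB1 and DNAJB1. HSPE1 counts as having no match, although the HSPD1 element lies just before its listed locus.

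Other genes of the chaperone network were read from 5 lists, of which 66 genes were tested. Of these 18 rose (27.3%) and 7 fell (10.6%), 37.9% called against 37.1% of all tested genes. Over all tested genes 18.2% were called higher and 18.9% lower, the background for each list. The HSP90 co-chaperones held 6 rises (31.6%) and 0 falls among 19 tested, with a median log2 change of 0.12. Under quantile normalization they held 4 rises and 1 fall, and without a filter on low values 3 rises and 0 falls. FKBP4, an HSP90-bound immunophilin, was at 65.0, 64.3, 88.3 and 88.3 FPKM, a change of 0.44 (limma adjusted p = 0.00168). SUGT1, an adaptor of HSP90 in kinetochore assembly, rose by 0.38 (limma adjusted p = 0.00299). AHSA1, which speeds the ATPase of HSP90, rose from a mean of 219.7 to 282 FPKM, a change of 0.36 (limma adjusted p = 0.00676; 0.0543 without control 2). In the 17 tested genes of the TRiC chaperonin and prefoldin, which fold actin and tubulin, 7 rose (41.2%) and 2 fell (11.8%). Their median was 0.13, and 4 rose and 2 fell under quantile normalization. Without a filter on low values 2 rose and 1 fell, and in a fit without a trend 5 rose and 1 fell. The prefoldin-like UXT fell by 0.44 on the log2 scale (limma adjusted p = 0.00258), and the TRiC gene CCT3 fell by 0.15 (limma adjusted p = 0.0253). PFDN4 rose by 0.30 (limma adjusted p = 0.0172; 0.0576 without control 1 and 0.0923 without control 2), and CCT8 by 0.24 (limma adjusted p = 0.0126; 0.0822 without control 2).

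HSP70 exchange factors and regulators moved least, with 1 rise and 1 fall among 12 (8.3% each). GRPEL1, the exchange factor of mitochondrial HSP70, rose by 0.29 (limma adjusted p = 0.0204; 0.0992 without control 1 and 0.0947 without control 2). BAG2 fell by 0.19 (limma adjusted p = 0.0422), with 0.159 and 0.114 without control 1 and control 2 and 0.130 and 0.131 without knockdown 1 and knockdown 2. Of 11 tested HSF1 regulators and other heat shock response genes, 4 rose (36.4%) and 1 fell (9.1%). The unfoldase VCP rose by 0.23 (limma adjusted p = 0.0117; 0.0782 without control 1 and 0.0642 without control 2). HSF4 fell from 7.11 and 5.87 to 4.30 and 4.47 FPKM, a change of -0.47 (limma adjusted p = 0.0225; 0.0723 without control 1, 0.0886 without knockdown 1 and 0.0672 without knockdown 2).

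The ER chaperones left out by the rule held no rise and 3 falls among 7 tested (42.9%). Over all tested genes 18.9% were called lower and 37.1% in either direction. HYOU1, the ER relative of HSP110, was at 57.1, 55.8, 45.5 and 39.0 FPKM, a log2 change of -0.41 (limma adjusted p = 0.0175; 0.0918 without control 1 and 0.0797 without control 2). DNAJB9 fell by 0.32 (limma adjusted p = 0.0359; 0.137 without control 1, 0.0592 without control 2 and 0.126 without knockdown 1). HSPA5, the ER HSP70 known as BiP, was at 194, 188, 167 and 169 FPKM, a change of -0.18 (limma adjusted p = 0.0180; 0.114 without control 1, 0.0747 without control 2 and 0.0572 without knockdown 1). The cytosolic HSP110 genes and their ER relative HYOU1 were called in opposite directions in these libraries.

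**Figure D4:**
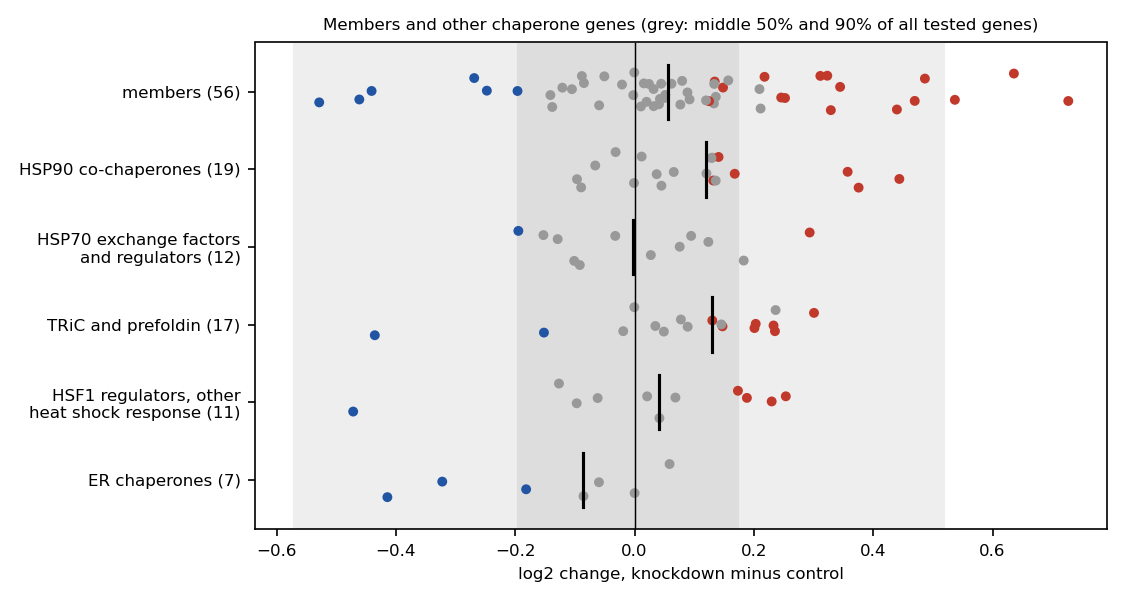
Log2 change (knockdown minus control) of the members and of the genes in 5 companion lists; points are genes coloured by call, vertical ticks are list medians, and the grey bands hold the middle 50% and 90% of all 13605 tested genes. With the deposited scaling, the 6 called HSP90 co-chaperones lie to the right of 0 and the 3 called ER chaperones to the left.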

How the data were processed

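RNA-seq libraries of 2 control and 2 ARID1A knockdown HCT116 samples were made with a NEBNext Ultra kit, per the labels' protocols. For every library the authors deposited FPKM values in a table of its own. Tools were STAR and Cufflinks and the build GRCh38, per the submitters' processing notes; for versions, annotation release and strand setting, nothing is stated in the sources used. Each table held 60811 rows, 45 second copies of pseudoautosomal genes were dropped, and 2347 values below 1e-09 were treated as 0. The column totals ran from 781729.8 to 814439.6 FPKM. Depth was estimated from the steps between low FPKM values (84.2% to 87.0% whole within 0.1 fragment), and other precision limits come from the 2 libraries per group. FPKM are not counts, so limma 3.58.1 in R 4.3.3 was fitted to log2(FPKM + 1), knockdown minus control, for genes with a mean of at least 1 FPKM (eBayes with a trend, 2.79 prior degrees of freedom). On simulated data (13605 genes, 5 runs of 200 changed genes) it recovered 4.8% of log2 changes of 0.25, 36.8% at 0.5 and 73.2% at 1, with 3.75% of calls false. In the real data 5046 genes were called. With so few changed genes the adjustment is stricter, so these rates do not give the power of this comparison. Replicates differed by more than sampling noise, with a chi-square of 3.9 and 3.42 per degree of freedom in control and knockdown.

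The members and lists were chosen with earlier results of these data known. Genes were named by a fixed rule: ARID1A, HSPA1A, HSPH1, 12 core members, up to 4 called members per class and direction, the most abundant of each class and up to 3 called genes per companion list. DNAJC2, DNAJB6 and the other members are named to account for all, and CCT3 is named as the other fall of its list. A gene that the rule takes is not reported here. Alternatives were the pseudocount, the filter, the scaling, the trend, the replicate block and leaving out each library. The sum of HSPA1A and HSPA1B was added after seeing the data. Promoter windows came from RefSeq, and alignments were made with Biopython 1.88.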

Additional observations from a re-analysis of the deposited data

How the results depend on the processing

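Of 45 named and tested genes, 4 changed sign under at least 1 of the 13 other settings (HSF1, HSP90AA1, HSPB1 and HSPD1), and 0 of these were past the threshold before or after. Without a filter on low values 7 members rose, 2786 genes were called in all and 11 companion genes were called, against 16, 5046 and 25. Without a trend 16 companion genes were called. With the replicate number as a block, 12 members rose, 5 fell, 4126 genes and 16 companion genes were called, and 7 named genes lost their call; the numbers are only shared, since the deviations of same-numbered libraries had a correlation of -0.01. Leaving out each library in turn gave 6 to 12 members that rose, 3 to 6 that fell, 2146 to 3368 calls in all and 4 to 17 companion calls. These fits leave 1 group with 1 library, which is assumed to vary like the other group. With 2 libraries per group, members that did not pass are not shown to be unchanged. The simulated recovery rates do not measure how many such changes were missed here, since far fewer genes changed in the simulation.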
